A study of Mus musculus with 6 samples.

Results

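The proteasome genes described here were taken from the gene count table of a C2C12 RNA-seq study by name. A row was taken if its symbol began with Psm, a letter from a to g and a digit, and if it was annotated as protein coding. The 3 immunoproteasome genes Psmb8, Psmb9 and Psmb10 were left out and are given for comparison. The rule matched 47 of the 55804 rows. They are 8 genes of the 20S alpha ring, 8 of the beta ring, 6 of the 19S ATPases, 11 of the other 19S subunits, 6 activators and inhibitors, 7 assembly chaperones and Psmc3ip. Psmc3ip, a factor of meiotic recombination, shares the prefix but is not a proteasome subunit.

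The libraries came from C2C12, a line of mouse skeletal myoblasts, cells that leave the cycle and form multinucleate myotubes once serum is withdrawn. One group carried a CRISPR/Cas9 guide RNA (gRNA) against Prr33 and is described by the submitters as a knockdown (Prr33-gRNA, 3 libraries). The other carried a control guide and is labelled wild type (Ctrl-gRNA, 3 libraries). Cells of both groups grew in medium with fetal bovine serum and were then kept for 3 days in differentiation medium with horse serum, and total RNA was sequenced. The labels describe a single established line for the knockdown, so an effect of the guide and a difference between derived lines cannot be told apart. They do not say that the libraries of a group were separate cultures, so p-values reflect only how much these libraries varied, and that variation may be technical.

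The proteasome degrades proteins that carry ubiquitin chains. Its 20S core is a barrel of alpha rings, which gate the entrance, and beta rings, in which the subunits beta 1, beta 2 and beta 5 (Psmb6, Psmb7 and Psmb5) cut the substrate. The 19S particle caps the barrel, recognises and removes ubiquitin, and unfolds the substrate with a ring of ATPases. Other caps work without ubiquitin or ATP: Psme1 and Psme2 together form the activator PA28 alpha-beta, Psme3 forms a nuclear PA28, and Psme4 is the nuclear activator PA200. Interferons induce Psme1, Psme2 and the immunoproteasome subunits, which take the places of the catalytic subunits in newly made cores. In skeletal muscle the proteasome carries out much of the turnover of regulatory and contractile proteins.

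Of the 47 genes, 44 passed the filter on low counts and were tested over the whole table with edgeR, with a threshold of 0.05 on the Benjamini-Hochberg adjusted p. Among them 14 were higher and 11 lower in Prr33-gRNA. The background was large: of 14651 tested genes 52.1% were called, 25.5% higher and 26.6% lower. The proteasome shares, 31.8% higher and 25.0% lower, lay close to this background. The median log2 fold change (Prr33-gRNA minus Ctrl-gRNA) was 0.04 over the proteasome genes and -0.00 over all tested genes. CPM ranges of the groups did not overlap for 29 of the 44, and this held for 57.9% of all tested genes. The split depended on the scaling: with library totals in place of TMM factors, 22 proteasome genes were higher and 7 lower, and the share of higher genes among all called genes was 61.8% in place of 49.0%.

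The genes did not move as a block. The 5 tested members on chromosome 14 (Psme2, Psme1, Psmb5, Psmd6 and Psmc6) were the 5 deepest falls, with a median of -1.38. Of the 39 tested members on other chromosomes 14 were higher (35.9%) and 6 lower (15.4%), with a median of 0.07 and a range from -0.34 to 0.67. Over all tested protein-coding genes of autosomes apart from chromosome 14 and of the X, 29.7% were higher and 26.2% lower, with a median of 0.02. With library totals the counts for the 39 became 22 higher and 2 lower, beside 34.1% higher and 21.1% lower over all tested genes. Within this remainder every tested alpha ring gene lay above 0, and the ATPases lay close to it.

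**Figure D1:**
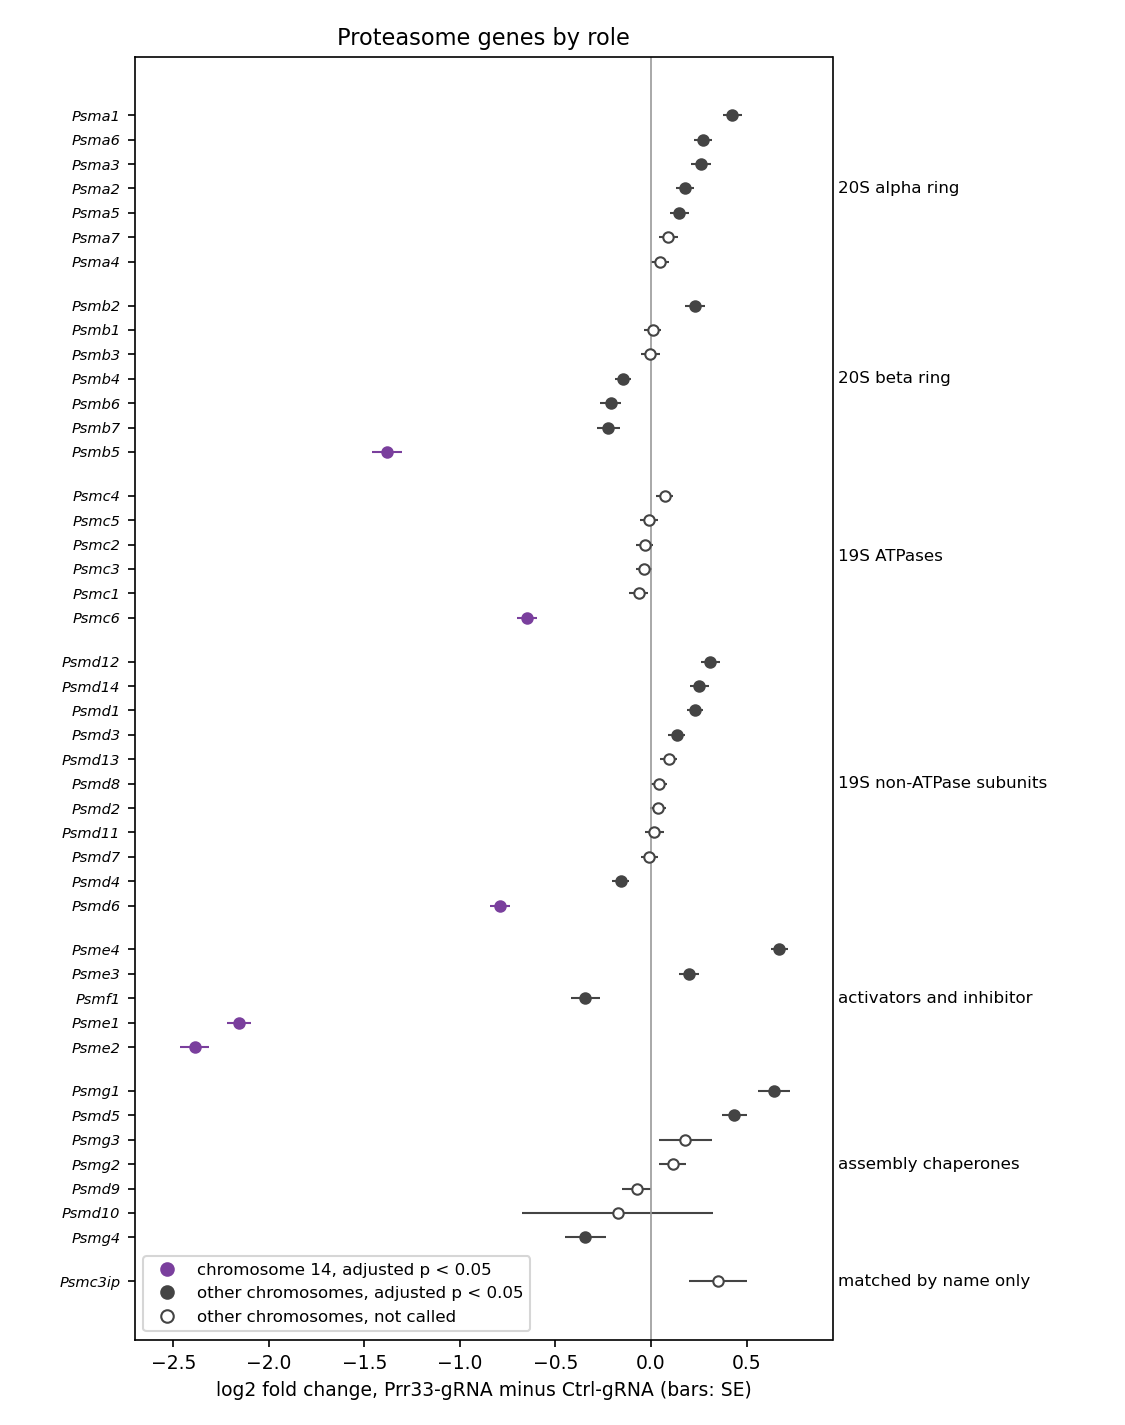
Log2 fold change of each tested proteasome gene (horizontal axis, Prr33-gRNA minus Ctrl-gRNA, bars are the SE of the edgeR fit), arranged by role from top to bottom. The 5 chromosome 14 genes (purple) lie furthest left, and the 7 alpha ring genes lie between 0.05 and 0.43.

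Psme1 and Psme2, the subunits of the interferon-inducible PA28 activator, fell furthest. Psme1 (chr14:55578123-55581529 in the authors' mm10 annotation, plus strand) had 23.5, 22.9 and 22.8 CPM in the Prr33-gRNA libraries, against 101, 99.7 and 108 CPM in the Ctrl-gRNA libraries. The Prr33-gRNA values lay almost on top of each other and far below every Ctrl-gRNA value. Psme1 was 4.46-fold lower (log2 fold change -2.16, SE 0.06, edgeR adjusted p = 5.66e-25). Psme2 (chr14:55587441-55591113, minus strand) lies 5912 bases away and had 14.9, 13.9 and 17.7 CPM in Prr33-gRNA, against 77.1, 84.1 and 82.8 CPM in Ctrl-gRNA. All 3 Prr33-gRNA libraries were low here too. Psme2 was 5.23-fold lower (log2 fold change -2.39, SE 0.08, edgeR adjusted p = 2.35e-23).

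The promoter windows of Psme1 and Psme2 are shown because these neighbours had the deepest falls among the proteasome genes, and that of Psmb5 because it had the next deepest. Sequences are from RefSeq (build GRCm38.p6), from 250 bases before to 50 bases after the RefSeq start, 5′ to 3′ on the gene's strand; for Psme1 that start lies inside the bounds of the authors' annotation. Capitals mark a match to 1 of 3 motifs searched on both strands. The first is the core of the interferon-stimulated response element, GAAA and a second GAAA with any 2 bases between them. The other motifs are the interferon-gamma activated site TTCNNNGAA and the antioxidant response element core TGACNNNGC, where N is any base.

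Psme1 promoter, chr14:55578244-55578543, plus strand: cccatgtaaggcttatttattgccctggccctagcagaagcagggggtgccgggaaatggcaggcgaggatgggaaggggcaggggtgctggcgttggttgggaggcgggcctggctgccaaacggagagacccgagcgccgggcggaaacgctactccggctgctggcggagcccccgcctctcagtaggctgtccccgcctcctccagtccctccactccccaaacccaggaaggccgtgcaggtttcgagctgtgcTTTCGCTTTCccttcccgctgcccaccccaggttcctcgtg
Psme2 promoter, chr14:55591052-55591351, minus strand: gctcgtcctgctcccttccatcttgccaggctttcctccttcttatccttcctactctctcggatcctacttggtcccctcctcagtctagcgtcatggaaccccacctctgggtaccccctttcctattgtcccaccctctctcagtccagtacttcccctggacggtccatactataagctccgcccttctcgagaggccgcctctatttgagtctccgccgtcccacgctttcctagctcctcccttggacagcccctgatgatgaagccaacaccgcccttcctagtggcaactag
Psmb5 promoter, chr14:54617946-54618245, minus strand: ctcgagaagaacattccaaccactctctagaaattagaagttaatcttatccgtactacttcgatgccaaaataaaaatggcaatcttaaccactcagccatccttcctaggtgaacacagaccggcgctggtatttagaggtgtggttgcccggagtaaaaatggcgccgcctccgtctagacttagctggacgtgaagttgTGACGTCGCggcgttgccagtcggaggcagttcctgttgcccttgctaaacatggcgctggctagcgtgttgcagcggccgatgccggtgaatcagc

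The Psme1 window held the interferon-stimulated core on its minus strand, at bases 10 to 19 after the start. The Psme2 window held none of the 3 motifs, which says only that these letters are not in this window. A window at another RefSeq start of Psme2, chr14:55590972-55591271, is not shown and also held none of them. The Psmb5 window held the antioxidant response core from base -47 to base -39. Of the 47 genes, 39 had a promoter entry. Among these the interferon-stimulated core was found in 5 (Psmb3, Psmd4, Psmd9, Psme1 and Psmg4), or 12.8%, against 3.44% of all 32851 promoter entries and 3.69% of 9572 tested coding genes with an entry. The activated site was found in 2 (Psmd2 and Psmg1), or 5.13%, against 8.30% of all entries and 8.24% of tested coding genes. The antioxidant core was found in 6, or 15.4%, which lies between the 12.4% of all entries and the 17.0% of tested coding genes. The 5 genes with the interferon-stimulated core had log2 fold changes of -2.16 (Psme1), -0.34 (Psmg4), -0.16 (Psmd4), -0.08 (Psmd9, not called) and -0.00 (Psmb3, not called), and a motif match is a description, not a bound site.

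Psmb5, the beta 5 subunit with the chymotrypsin-like activity of the core, moved most among the 3 constitutive catalytic subunits. It had 24.0, 23.7 and 21.8 CPM in Prr33-gRNA libraries, against 65.1, 63.5 and 52.0 CPM in Ctrl-gRNA libraries. The groups stood well apart, although Ctrl-gRNA replicate 3 was lower than the other controls. Psmb5 (chr14:54614119-54618022, minus strand) was 2.61-fold lower (log2 fold change -1.38, SE 0.08, edgeR adjusted p = 4.94e-16).

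Psmd6, a lid subunit of the 19S particle (chr14:14112174-14120984, minus strand), had 78.7, 85.3 and 82.6 CPM in Prr33-gRNA, against 137, 143 and 146 CPM in Ctrl-gRNA. Psmc6, an ATPase of its base (chr14:45329788-45349705, plus strand), had 133, 118 and 141 CPM in Prr33-gRNA, against 196, 209 and 208 CPM in Ctrl-gRNA. Neither gene's groups overlapped. The log2 fold changes were -0.79 for Psmd6 (SE 0.05, edgeR adjusted p = 3.43e-15) and -0.65 for Psmc6 (SE 0.05, edgeR adjusted p = 6.76e-12). Psmb11, the thymus-specific catalytic subunit and the last member on chromosome 14, had 0 counts in all Prr33-gRNA libraries and 3 counts in all over the Ctrl-gRNA libraries, too few to test.

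These falls belong to a chromosome on which 90.2% of the 400 tested protein-coding genes were called lower (median log2 fold change -0.90, quartiles -1.15 and -0.66). Chromosome 14 took 1.79% to 1.80% of counts in Prr33-gRNA libraries and 3.00% to 3.01% in Ctrl-gRNA libraries. Counted from the deepest fall, Psme2 ranked 29 and Psme1 32 of the 400, which is -1.49 and -1.26 from the chromosome's median on the log2 scale. Psmb5 ranked 75, at -0.48 from the median. Psmd6 ranked 251 and Psmc6 308, which is 0.11 and 0.25 above it. So the subunits of PA28 fell further than most genes of the chromosome, while Psmd6 and Psmc6 fell less than its median gene.

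Genes around these members were lower as well. Within 200 kb of Psme1 18 of 18 tested genes were lower, with log2 fold changes from -2.39 to -0.59 and a median of -1.06. The deepest apart from Psme2 were Irf9 (-2.26), for a DNA-binding subunit of the interferon-activated complex ISGF3, Tssk4 (-2.12) and Rnf31 (-1.93), for the catalytic subunit of the linear ubiquitin ligase. Tssk4 was low, at 0.216 CPM in Prr33-gRNA and 0.955 CPM in Ctrl-gRNA. Its SE was 0.60, so its place among these genes is uncertain. Irf9 lies 12458 bases from Psme2. Around Psmb5 13 of 13 tested genes were lower (median -1.05), around Psmc6 5 of 5 and around Psmd6 2 of 2.

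**Figure D2:**
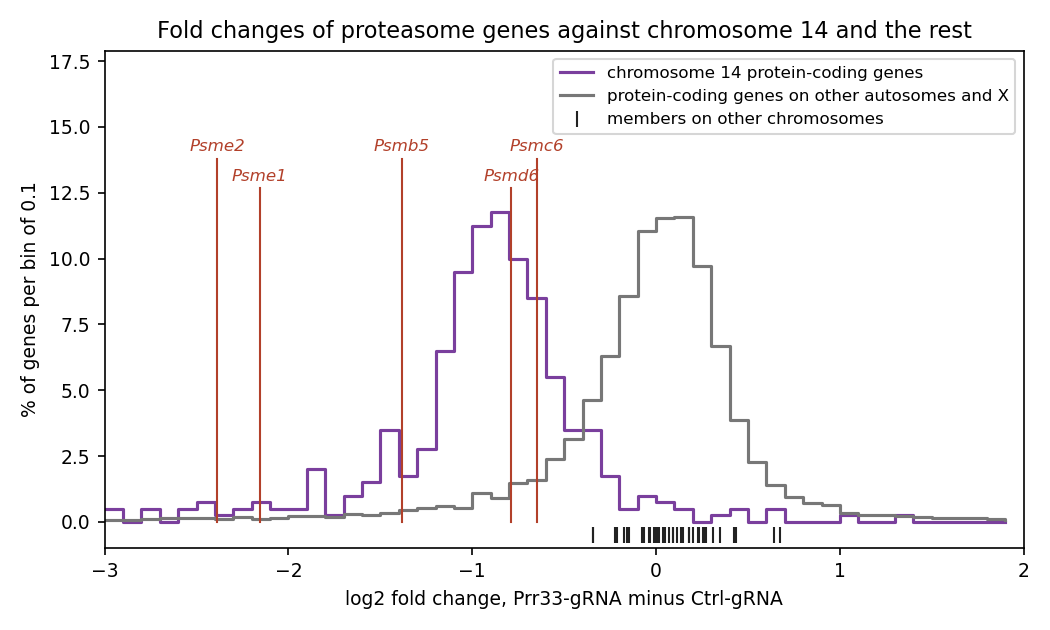
Share of tested protein-coding genes in each bin of 0.1 log2 fold change, for chromosome 14 (purple) and for the other autosomes and the X (grey), with the 5 tested chromosome 14 proteasome genes as vertical lines and the other members as ticks below 0. Psme2 and Psme1 lie in the left tail of the chromosome 14 genes, whose median is -0.90, and 25 chromosome 14 genes and 315 other genes fall outside the plotted range.

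The immunoproteasome subunits, on chromosomes 8 and 17, fell as well, and all 3 were called lower by edgeR. Psmb10 (beta 2i) had 36.7, 39.2 and 32.1 CPM in Prr33-gRNA, against 150, 145 and 150 CPM in Ctrl-gRNA (log2 fold change -2.04, SE 0.06, edgeR adjusted p = 2.40e-24). Psmb9 (beta 1i) had 1 count in each Prr33-gRNA library, against 61, 42 and 49 counts in the Ctrl-gRNA libraries. The ratio of Ctrl-gRNA to Prr33-gRNA was 55.2, with an exact 95% interval from 18.5 to 271 for counting error. Psmb8 (beta 5i) had no count in any Prr33-gRNA library, against 54, 46 and 39 counts in Ctrl-gRNA, and was at least 50.5-fold lower, with 3 counts over the whole group taken as the floor. Psmb9 shares 5.79% of its exonic bases with the opposite-strand gene Tap1, itself lower (-4.24), and no strand setting is given in the sources used here.

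**Figure D3:**
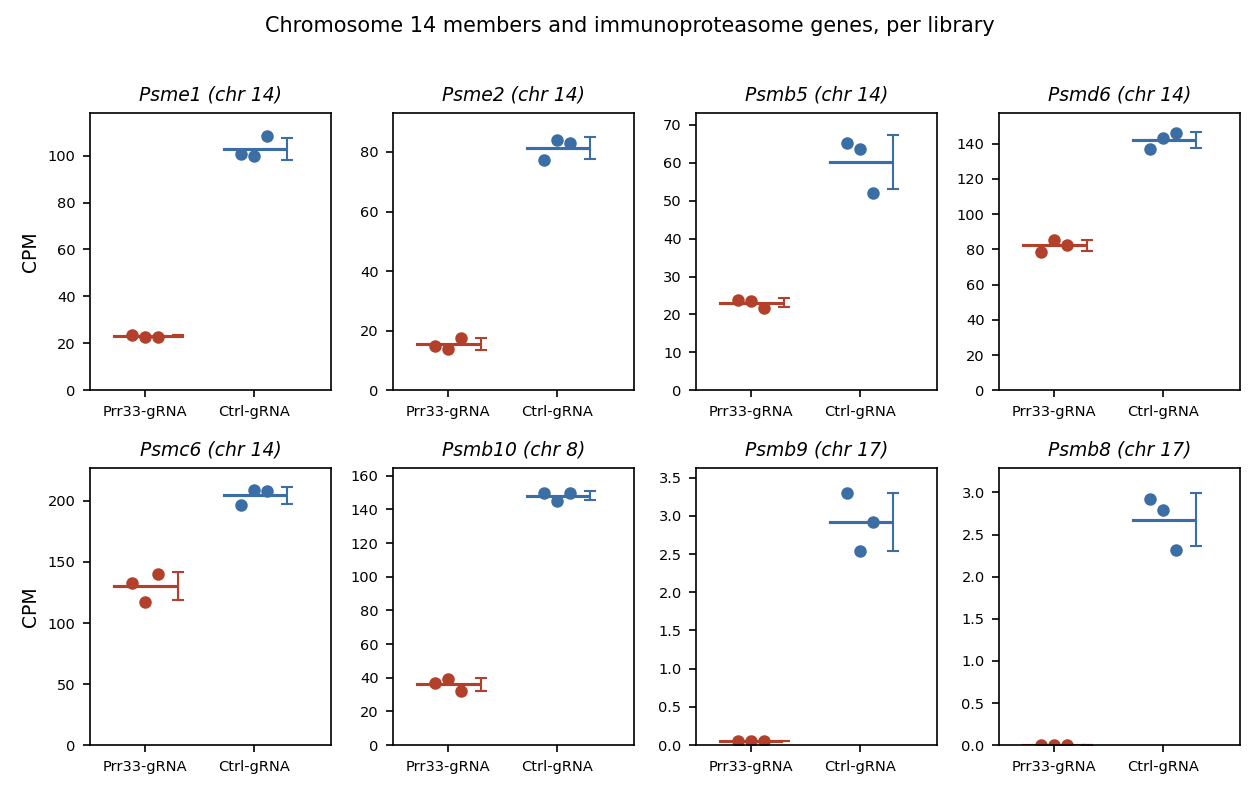
CPM of the 5 tested chromosome 14 proteasome genes and the 3 immunoproteasome genes in each library (points), with the group mean (line) and SD (bracket), Prr33-gRNA left and Ctrl-gRNA right. In each panel every Prr33-gRNA point lies below every Ctrl-gRNA point, and the scale of CPM differs between panels.

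Each catalytic place was then described by the share of the immunoproteasome form in the FPKM of both forms, which does not measure assembled proteasomes. FPKM divides by the length of all annotated exons, 3421 bases for Psmb7 and 1705 for Psmb10, so the share depends on these lengths. At beta 2 the share of Psmb10 was 40.5%, 41.9% and 39.3% in Prr33-gRNA libraries, against 69.0%, 70.1% and 73.1% in Ctrl-gRNA libraries. By FPKM Psmb7 thus exceeded Psmb10 in every Prr33-gRNA library, with 30.8 ± 1.60 and 21.1 ± 2.16 FPKM (SD, n = 3 each). Psmb10 exceeded Psmb7 in every Ctrl-gRNA library, with 86.3 ± 1.72 and 35.7 ± 3.40 FPKM (SD, n = 3 each). In mean CPM, which is not corrected for length, the order was the same, with 106 for Psmb7 and 36.0 for Psmb10 in Prr33-gRNA. In Ctrl-gRNA the means were 123 CPM for Psmb7 and 148 CPM for Psmb10. At beta 1 Psmb9 made up 0.0274% ± 0.000361 in Prr33-gRNA and 1.28% ± 0.102 in Ctrl-gRNA (SD, n = 3 each), the rest being Psmb6. Psmb9 had 1 count in each Prr33-gRNA library, so the SD of that group does not cover its counting error. At beta 5 Psmb8 made up 0% in Prr33-gRNA and 1.17% ± 0.0129 in Ctrl-gRNA (SD, n = 3), so nearly all beta 5 transcript was Psmb5 in both groups, at 25.7 ± 1.37 FPKM in Prr33-gRNA and 66.5 ± 7.76 FPKM in Ctrl-gRNA (SD, n = 3 each).

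**Figure D4:**
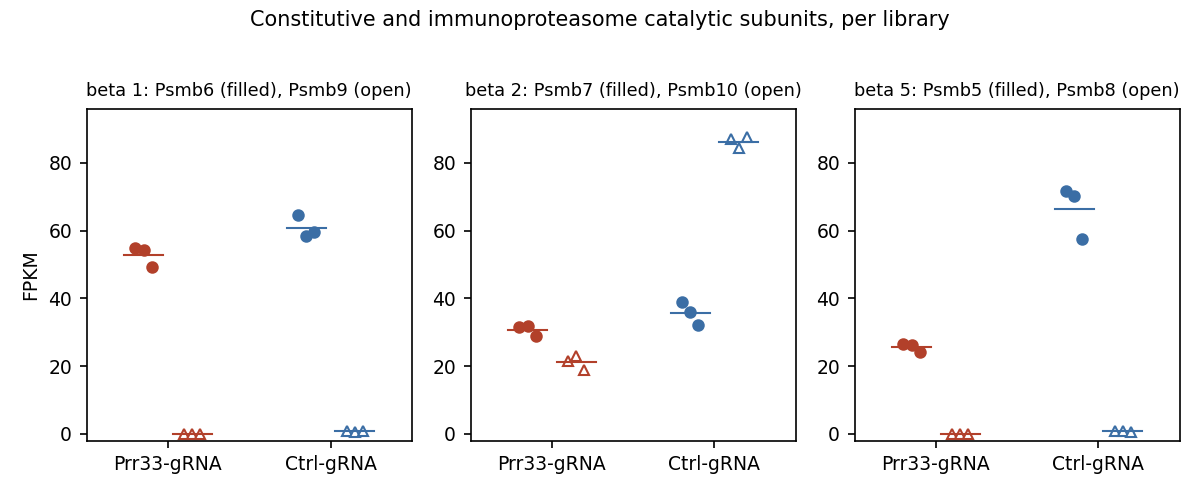
FPKM of the constitutive subunit (filled circles) and its immunoproteasome counterpart (open triangles) in each library at the 3 catalytic places, with group means as lines, Prr33-gRNA left and Ctrl-gRNA right. At beta 2 the triangles of Psmb10 lie below the circles of Psmb7 in Prr33-gRNA and above them in Ctrl-gRNA, and at beta 1 and beta 5 the triangles lie near 0 in both groups.

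The alpha ring of the core was slightly higher in Prr33-gRNA. Of its 7 tested genes 5 rose (71.4%) and 0 fell, beside 25.5% higher and 26.6% lower over all tested genes. The median log2 fold change was 0.18. Psma1 rose most, with 164, 159 and 164 CPM in Prr33-gRNA libraries, against 117, 117 and 129 CPM in Ctrl-gRNA libraries (log2 fold change 0.43, SE 0.05, edgeR adjusted p = 5.73e-09). Psma6 (0.27), Psma3 (0.26), Psma2 (0.18) and Psma5 (0.15) also rose, by 10.9% to 20.8%. Psma7 (0.09) and Psma4 (0.05) did not pass, but their CPM ranges, like those of the other 5, did not overlap between groups. Ranges did not overlap for 57.9% of all tested genes. The call for Psma5, the weakest of the 5 (edgeR adjusted p = 0.0131), was lost without Ctrl-gRNA replicate 1 (adjusted p = 0.0670) and without Prr33-gRNA replicate 1 (adjusted p = 0.0694). With library totals as the scaling all 7 were called higher, beside 34.1% of all tested genes. Psma8, the testis form of an alpha subunit, had no count in any library.

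The beta ring was mixed. Of 7 tested genes 1 rose (14.3%) and 4 fell (57.1%), with a median of -0.15, beside 25.5% higher and 26.6% lower over all tested genes. Without Psmb5 the counts were 1 and 3. Psmb2, a structural subunit, rose to 94.5 ± 1.19 CPM in Prr33-gRNA, against 80.6 ± 3.69 CPM in Ctrl-gRNA (SD, n = 3 each; log2 fold change 0.23, edgeR adjusted p = 4.37e-04). The catalytic Psmb7 had 108, 109 and 99.6 CPM in Prr33-gRNA, against 135, 124 and 111 CPM in Ctrl-gRNA. Its groups were separated by a narrow gap, since Ctrl-gRNA replicate 3 lay close to the Prr33-gRNA libraries. Psmb7 fell by 0.22 (SE 0.06, edgeR adjusted p = 0.00244), the catalytic Psmb6 fell by 0.21 and the structural Psmb4 fell by 0.15. These 3 calls rest on the scaling: with library totals the log2 fold changes were -0.13 for Psmb7, -0.12 for Psmb6 and -0.06 for Psmb4, and none was called (edgeR adjusted p = 0.0615, 0.0563 and 0.280). Psmb7 also shares 11.8% of its exonic bases with Nek6 on the opposite strand. The structural subunits Psmb1 (0.01) and Psmb3 (-0.00) did not pass.

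Among the 19S ATPases, which unfold substrates and open the gate, only the chromosome 14 gene Psmc6 was called. The other 5 had log2 fold changes from -0.07 (Psmc1) to 0.07 (Psmc4), with SEs of 0.04 to 0.05, and their CPM ranges overlapped between groups. With library totals Psmc4 was called higher (0.16) and Psmc6 stayed lower. Psmc3, the most abundant of the ring, averaged 418 ± 6.92 CPM in Prr33-gRNA and 429 ± 5.91 CPM in Ctrl-gRNA (SD, n = 3 each).

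Of the 11 other subunits of the 19S particle 4 rose (36.4%) and 2 fell (18.2%), beside 25.5% higher and 26.6% lower over all tested genes. The 4 were the lid subunits Psmd12 (0.31) and Psmd3 (0.13), the deubiquitinase Psmd14 (0.25), which removes the ubiquitin chain before a substrate enters, and the base scaffold Psmd1 (0.23). Psmd12 had 149 ± 8.45 CPM in Prr33-gRNA and 120 ± 2.84 CPM in Ctrl-gRNA, and Psmd14 had 135 ± 3.82 CPM in Prr33-gRNA and 113 ± 4.39 CPM in Ctrl-gRNA (SD, n = 3 each). The call for Psmd3 (edgeR adjusted p = 0.0109) was lost without Ctrl-gRNA replicate 2 (adjusted p = 0.0620). Beside Psmd6 the only fall was that of the ubiquitin receptor Psmd4 (-0.16), which had 176 ± 2.38 CPM in Prr33-gRNA and 196 ± 1.99 CPM in Ctrl-gRNA (SD, n = 3 each). It was not called with library totals (-0.07, edgeR adjusted p = 0.182). Psmd2, Psmd7, Psmd8, Psmd11 and Psmd13 had log2 fold changes from -0.01 to 0.09 and were not called; with library totals Psmd2, Psmd8 and Psmd13 were called higher.

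The activators Psme1 and Psme2, both on chromosome 14, fell, while Psme3 and Psme4, both on chromosome 11, rose. Type of activator and chromosome cannot be told apart here. Psme4, or PA200, which has been tied to histone degradation, had the largest rise of all proteasome genes. It had 298, 290 and 307 CPM in Prr33-gRNA libraries, against 175, 192 and 195 CPM in Ctrl-gRNA libraries. Even the lowest Prr33-gRNA value stood far above the highest Ctrl-gRNA value. Psme4 was 1.59-fold higher (log2 fold change 0.67, SE 0.05, edgeR adjusted p = 1.93e-14). Of 4 tested genes within 200 kb of it 1 was called higher and 0 lower. Its promoter is shown because it carries the same antioxidant response core as that of Psmb5 (-1.38). The match is on the other strand, from base -7 to base 2. The other proteasome genes with this core were Psmc6 (-0.65), Psmb6 (-0.21), Psmd9 (-0.08, not called) and Psmd12 (0.31). Psmb5 and Psmc6 are on chromosome 14.

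Psme4 promoter, chr11:30771525-30771824, plus strand: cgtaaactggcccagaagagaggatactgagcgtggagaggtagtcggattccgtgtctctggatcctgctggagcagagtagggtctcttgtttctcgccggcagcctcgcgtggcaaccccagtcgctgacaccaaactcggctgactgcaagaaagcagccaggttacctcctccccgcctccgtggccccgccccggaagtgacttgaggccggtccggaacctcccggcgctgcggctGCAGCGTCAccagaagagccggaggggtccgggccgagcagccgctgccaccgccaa

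Psme3, the nuclear PA28 gamma, had 146, 135 and 136 CPM in Prr33-gRNA, against 119, 128 and 117 CPM in Ctrl-gRNA. The groups did not overlap, and the rise was small (log2 fold change 0.20, SE 0.05, edgeR adjusted p = 0.00123). Psmf1, the inhibitor PI31, had 30.8, 28.5 and 28.3 CPM in Prr33-gRNA, against 34.8, 40.0 and 36.5 CPM in Ctrl-gRNA. It fell by 0.34 (SE 0.08, edgeR adjusted p = 2.89e-04), with every Prr33-gRNA library below every Ctrl-gRNA library.

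By FPKM, which divides by the length of all annotated exons, the order of the activators differed between the groups. In Prr33-gRNA the mean levels were 47.1 FPKM for Psme3, 35.5 for Psme4, 10.4 for Psme1 and 8.77 for Psme2. In Ctrl-gRNA they were 46.3 FPKM for Psme1, 45.8 for Psme2, 40.9 for Psme3 and 22.2 for Psme4. By FPKM Psme1 and Psme2 in Ctrl-gRNA, with SDs of 2.25 and 2.18, did not differ beyond their spread. In mean CPM, which is not corrected for length, the order was Psme4, Psme3, Psme1 and Psme2 in both groups. This is also the order of their annotated lengths, from 8382 to 1764 bases. The CPM values were 299, 139, 23.1 and 15.5 CPM in Prr33-gRNA and 187, 121, 103 and 81.4 CPM in Ctrl-gRNA. Psme2b, a copy of Psme2 on chromosome 11, had 1 count over the Prr33-gRNA libraries and 16 over the Ctrl-gRNA libraries, a ratio of Ctrl-gRNA to Prr33-gRNA of 17.4 (exact 95% interval from 2.71 to 732). Reads of such similar copies may be shared between them, so its level is uncertain. Of the 16 Ctrl-gRNA counts 10 came from replicate 2, and the interval covers counting error only. Psme2b also shares 4.90% of its exonic bases with 9930111J21Rik1 (-4.78) on the same strand.

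The assembly chaperones, which build the core and the base but are not part of the finished particle, were also mixed. Of 7 tested genes 2 rose (28.6%) and 1 fell (14.3%), beside 25.5% higher and 26.6% lower over all tested genes. Psmg1, which with Psmg2 guides alpha ring assembly, had 32.9, 33.5 and 32.0 CPM in Prr33-gRNA, against 18.8, 22.5 and 21.8 CPM in Ctrl-gRNA. The groups were clearly separate. Of 4 tested genes within 200 kb of Psmg1, 2 were called higher and 0 lower. Their log2 fold changes ran from -0.38 to 0.72. Psmg1 was 1.56-fold higher (log2 fold change 0.64, SE 0.08, edgeR adjusted p = 6.15e-08). Its partner Psmg2 differed by 0.11 and did not pass (41.0 ± 2.78 CPM in Prr33-gRNA and 37.9 ± 1.72 CPM in Ctrl-gRNA; SD, n = 3 each).

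Psmd5, a chaperone of the 19S base, had 69.4, 68.0 and 76.0 CPM in Prr33-gRNA, against 49.6, 50.2 and 58.0 CPM in Ctrl-gRNA. The third library of each group was its highest, and the groups did not overlap. Psmd5 was 1.35-fold higher (log2 fold change 0.44, SE 0.07, edgeR adjusted p = 9.07e-07). The other base chaperones were not called: Psmd9 differed by -0.08 and Psmd10 by -0.17. Psmd10 had 1.41, 3.26 and 3.25 CPM in Prr33-gRNA, against 5.08, 2.18 and 1.61 CPM in Ctrl-gRNA, so its ranges overlapped and its SE was 0.50.

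Psmg4, which pairs with Psmg3 in alpha ring assembly, had 13.5, 15.9 and 14.1 CPM in Prr33-gRNA, against 20.1, 16.3 and 18.6 CPM in Ctrl-gRNA. The gap between the groups was narrow. Psmg4 fell by 0.34 (SE 0.11, edgeR adjusted p = 0.00718), and the call was lost without Ctrl-gRNA replicate 1 (adjusted p = 0.0734). Psmg3, at 9.01 ± 0.531 CPM in Prr33-gRNA and 7.94 ± 0.709 CPM in Ctrl-gRNA (SD, n = 3 each), did not pass. Psmc3ip, matched by name only, differed by 0.35 (SE 0.15, edgeR adjusted p = 0.0527). It was called higher without Ctrl-gRNA replicate 1 (adjusted p = 0.0439) and without Prr33-gRNA replicate 1 (adjusted p = 0.0369), and also with library totals, with protein-coding genes only and in both FPKM fits. It shares 21.2% of its exonic bases with Mlx (0.25) on the opposite strand. Psmd13 likewise shares 10.1% with Sirt3 (-0.64), Psmc3 8.25% with Slc39a13 (-0.00) and Psmd9 25.5% with Gm26745, and with no strand setting given, reads there cannot be told apart.

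**Figure D5:**
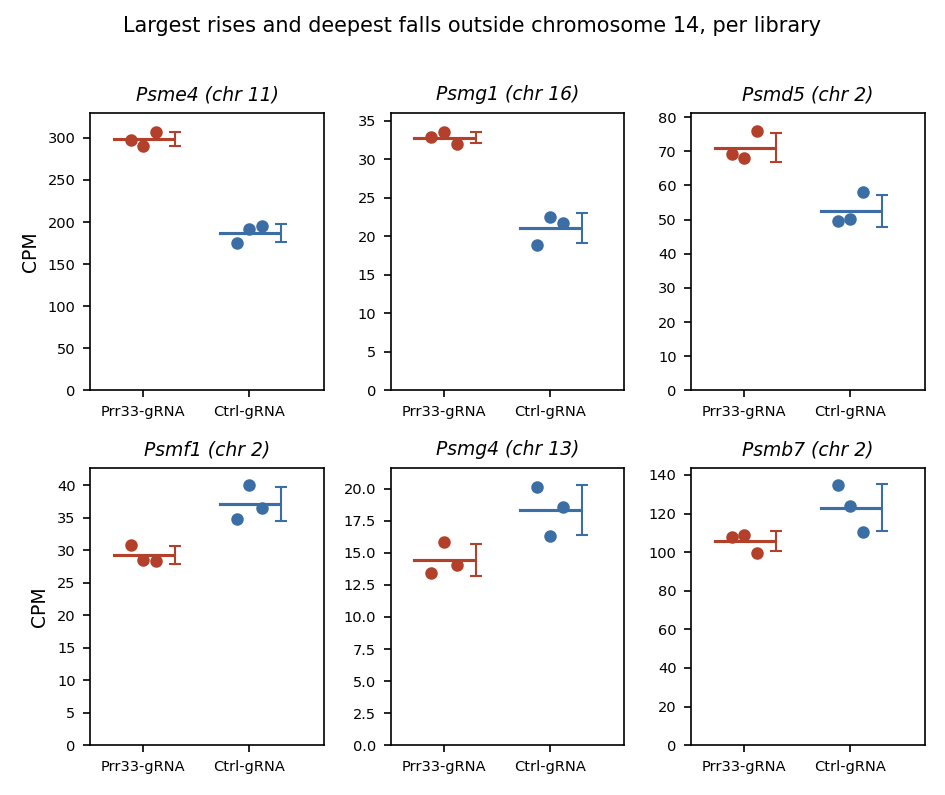
CPM of the 3 proteasome genes with the largest rise (top) and the 3 with the deepest fall (bottom) outside chromosome 14 in each library (points), with group mean (line) and SD (bracket), Prr33-gRNA left and Ctrl-gRNA right. Psme4 sits at 290 to 307 CPM in Prr33-gRNA and at 175 to 195 CPM in Ctrl-gRNA, and the gaps of Psmg4 and Psmb7 are narrow.

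The sum over all 47 genes differed little between the groups, and its direction depended on the measure. In CPM it was 6189 ± 30.2 CPM in Prr33-gRNA and 6150 ± 65.7 CPM in Ctrl-gRNA (SD, n = 3 each), with overlapping ranges. Without chromosome 14 it was 5915 ± 32.5 CPM in Prr33-gRNA and 5559 ± 59.3 CPM in Ctrl-gRNA, a ratio of 1.06, and on chromosome 14 it was 274 ± 11.1 CPM in Prr33-gRNA and 591 ± 12.8 CPM in Ctrl-gRNA, a ratio of 0.464. By ring, the alpha sum was 996 CPM in Prr33-gRNA and 866 CPM in Ctrl-gRNA, and the beta sum was 811 CPM in Prr33-gRNA and 886 CPM in Ctrl-gRNA. As a share of all counts, which uses no scaling factor, the 47 genes took 0.638% ± 0.00362 in Prr33-gRNA and 0.596% ± 0.00651 in Ctrl-gRNA (SD, n = 3 each), higher in every Prr33-gRNA library. Summed FPKM was 2227 ± 18.5 in Prr33-gRNA and 2277 ± 19.5 in Ctrl-gRNA (SD, n = 3 each), lower in every Prr33-gRNA library.

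Subunits that stand in equal number in the particle did not have equal FPKM values. FPKM divides by a gene length that equals the bases of all annotated exons, so annotated length enters these differences. In the alpha ring the mean FPKM ran from 32.7 (Psma3) to 120 (Psma6) in Prr33-gRNA and from 27.2 (Psma3) to 99.1 (Psma6) in Ctrl-gRNA. The lengths were 3894 bases for Psma3 and 1234 for Psma6. In mean CPM, which is not corrected for length, Psma3 and Psma6 had 128 and 149 in Prr33-gRNA and 107 and 123 in Ctrl-gRNA. Length can therefore enter a comparison of genes in CPM as well. In the beta ring the lowest was Psmb5 in Prr33-gRNA (25.7) and Psmb7 in Ctrl-gRNA (35.7), and the highest was Psmb4, with 95.7 in Prr33-gRNA and 105 in Ctrl-gRNA. Among the ATPases the lowest was Psmc6 in Prr33-gRNA (37.2) and Psmc2 in Ctrl-gRNA (38.3), while Psmc3 was the highest in both, with 160 in Prr33-gRNA and 163 in Ctrl-gRNA. Psmc2 in Prr33-gRNA had 37.6 ± 0.819 FPKM, so it did not differ from Psmc6 (37.2 ± 3.25) beyond their spread (SD, n = 3 each).

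Proteins that bind the proteasome and factors that control it were taken as companion lists. Of 18 tested proteasome-bound proteins 8 rose (44.4%) and 4 fell (22.2%), with a median of 0.10, beside 25.5% higher and 26.6% lower over all tested genes. Usp14 (0.39) and Uchl5 (0.37), the deubiquitinases that dock on the 19S particle, rose, as did the shuttle factor Ubqln2 (0.38) and Ecpas (0.30), a tether between the core and its cap. Fam192a, a partner of Psme3, fell by 0.38, and the ubiquitin receptor Adrm1 fell by 0.17. Whether the calls of Adrm1 and Uchl5 held with library totals was not examined. The chaperone of core maturation, Pomp, did not pass (0.05).

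Of 14 tested regulators 3 rose (21.4%) and 5 fell (35.7%), with a median of -0.09, beside the same 25.5% and 26.6% over all tested genes. Nfe2l1, the factor that raises proteasome genes when the proteasome is inhibited, had 570, 572 and 528 CPM in Prr33-gRNA, against 825, 805 and 712 CPM in Ctrl-gRNA. All Prr33-gRNA values lay below all Ctrl-gRNA values, with a log2 fold change of -0.49 (SE 0.05, edgeR adjusted p = 1.46e-09). Of the proteins that process its product, Vcp rose (0.26), Ngly1 on chromosome 14 fell (-0.79) and Ddi2 did not pass (-0.10). Nfe2l2 did not pass (-0.07), its inhibitor Keap1 fell by 0.32, and the small Maf partners Maff and Mafk fell by 1.09 and 0.37.

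Among genes for ubiquitin and its activating enzymes, the polyubiquitin gene Ubb had 303, 355 and 282 CPM in Prr33-gRNA, against 500, 496 and 477 CPM in Ctrl-gRNA. The groups did not overlap, and Ubb fell by 0.65 (SE 0.07, edgeR adjusted p = 1.31e-05). Ubiquitin genes share near-identical repeats and have copies, so these values are uncertain. Uba1, the main activating enzyme, fell by 0.13 with TMM scaling and was not called with library totals (-0.04), and Uba6, which also activates a second modifier, rose by 0.52.

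Other differences between the groups ran beside these results. Total counts were 17412383 to 19471762 in Prr33-gRNA and 17006381 to 19118010 in Ctrl-gRNA, and 3 counts in a library are 0.150 to 0.166 CPM in Prr33-gRNA and 0.162 to 0.182 CPM in Ctrl-gRNA. The targeted gene Prr33 was 43.7 ± 1.82 CPM in Prr33-gRNA and 58.6 ± 3.76 CPM in Ctrl-gRNA (SD, n = 3 each; log2 fold change -0.42, SE 0.06, edgeR adjusted p = 1.37e-06). Muscle markers were present, summing to 14248 to 15031 CPM over 8 genes in Prr33-gRNA and 25867 to 26295 CPM in Ctrl-gRNA, with 7 of 8 lower, and fibroblast markers summed to 790 to 855 CPM over 7 genes in Prr33-gRNA and 1734 to 1869 CPM in Ctrl-gRNA, with 6 of 6 tested lower. Endothelial markers summed to 1.66 to 2.55 CPM in Prr33-gRNA and 2.56 to 3.63 CPM in Ctrl-gRNA (1 of 5 tested, 0 called). Cdh5 and Kdr were at 0 in Prr33-gRNA, and Vwf, the tested gene, was lower but not called (-0.64). Tek and Pecam1, too low to test, went the other way, with 32 and 7 counts in Prr33-gRNA and 9 and 5 counts in Ctrl-gRNA. Leukocyte markers summed to 3.80 to 5.53 CPM in Prr33-gRNA and 5.59 to 6.78 CPM in Ctrl-gRNA (2 of 5 tested, 0 called, Ptprc and Adgre1 at 0 in all libraries). Of the adipocyte markers Adipoq, Cidec and Plin1 were at 0 in all libraries, and Fabp4 did not exceed 0.0553 CPM in Prr33-gRNA and 0.0595 CPM in Ctrl-gRNA. Mitochondrial transcripts took 2.86% to 3.37% of counts in Prr33-gRNA and 2.37% to 2.53% in Ctrl-gRNA. The part of the muscle and fibroblast differences in the proteasome values was not tested, and in bulk RNA fewer cells of a type and less RNA per cell cannot be told apart.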

How the data were processed

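RNA was sequenced from 3 Prr33-gRNA and 3 Ctrl-gRNA libraries. The submitters' processing notes name HISAT2 2.0.5, featureCounts 1.5.0-p3, CASAVA and mm10; roles, strand setting and annotation release are not given in the sources used here. The authors deposited whole-read counts per gene, not normalized, with a gene length, and a table of FPKM values. The deposited gene lengths were not used in a test. No molecular identifiers mark the reads, so intervals and floors cover counting error only.

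The main test was edgeR 4.0.16's quasi-likelihood F test on the counts (robust fitting, filterByExpr, TMM factors, 2 groups, no covariate) in R 4.3.3, with Benjamini-Hochberg adjustment over all 14651 tested genes. CPM uses TMM-scaled library sizes. The SE is the absolute log2 fold change over the square root of F. Replicate numbers came from the titles; no library was a duplicate of another, the chi-square per gene within groups being 2.88 to 5.66.

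The members and lists were chosen with earlier results of these data known. Values in every library are given for chromosome 14 members, activators and the inhibitor, the 3 largest rises and 3 deepest falls elsewhere (called, at least 5 CPM) and immunoproteasome genes; Psma1, Psmd10, Nfe2l1 and Ubb were given likewise after their values were seen, and Tssk4, Uchl5, Adrm1 and Pomp were named after theirs. Of each companion list the 4 called members with the lowest adjusted p may be named. For the ubiquitin list 1 gene and the list's counts are not reported here. All 50 proteasome and immunoproteasome genes had the same bounds in GENCODE M21, from which exon overlaps were taken. Python 3.11.15, pandas 2.3.3, scipy 1.17.1 and matplotlib 3.10.9 were used.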

Additional observations from a re-analysis of the deposited data

How the results depend on the processing

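Alternatives were RLE size factors, library totals without factors, DESeq2 1.42.0, voom and FPKM fits in limma 3.58.1 (pseudocounts 1 and 0.1), protein-coding genes only, no low-count filter, a minimum of 1 CPM in 3 libraries, no chromosome 14, a replicate block, an adjusted p below 0.01, and each library left out. Library totals alone gave 22 proteasome genes higher and 7 lower, in place of 14 and 11, and moved the median of all genes to 0.09. Without chromosome 14, 6 were lower and 14 higher, since its 5 members are then not tested. In the other settings 12 to 15 were higher and 10 to 12 lower; leaving out single libraries gave 13 to 14 higher and 10 to 11 lower, and 3315 to 3705 genes higher and 3483 to 3885 lower. Deviations of same-numbered libraries from their group means were uncorrelated (-0.01, -0.01 and 0.02), and the numbers were not taken as pairs; with a replicate block 14 were higher and 11 lower. Of 787 values for the 44 tested members, 10 lost the call, 13 gained it and 0 reversed. The cause was not tested. Psmd10, with 150 counts over the Prr33-gRNA libraries and 157 over the Ctrl-gRNA libraries and a wide spread between libraries (SE 0.50), was too imprecise for a change of its size (-0.17) to be detectable.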
